A study of Mus musculus with 3 samples.

Results

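MicroRNAs that are known from cytokine and lipid stress of pancreatic beta cells were followed at their hairpin genes Mir21a, Mir34a, Mir34b, Mir34c, Mir146, Mir146b and Mir155. The 7 hairpins were chosen by name from 1005 mouse hairpins in the RefSeq table (GRCm38.p6), and both arms of each, 14 in all, were measured. The data are small RNA sequencing libraries of MIN6, a mouse insulinoma line that secretes insulin and is used as a stand-in for beta cells. All 3 libraries are replicates of 1 condition, untreated MIN6 cells kept in DMEM with 25 mM glucose and fetal bovine serum, so no treated group, no cytokine or lipid exposure and no second glucose level can be compared. The study's methods call the libraries biological replicates.

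A microRNA gene is transcribed as a longer RNA, from which the nuclear enzyme Drosha cuts a hairpin and the cytoplasmic enzyme Dicer cuts a duplex of both arms. One strand of the duplex is loaded into an Argonaute protein, where bases near its 5′ end, the seed, pair with target messenger RNAs. In beta cells and islets, miR-21, miR-146 and miR-155 are known from inflammatory signalling through NF-kB, and the miR-34 family from p53 and from fatty acid exposure.

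The mature sequences are shown because the seeds group the members and because a few bases decide which gene a read came from. They are RefSeq sequences from the table named above, with bases 2 to 8, the seed, in capitals. RefSeq mature forms were matched for 13 of the 14 arms, all but miR-34c-5p. miR-146a-5p and miR-146b-5p share a seed, and differ, counted from the 5′ end with miR-146a-5p first, by G18A and U21C:
miR-146a-5p: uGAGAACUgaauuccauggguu
miR-146b-5p: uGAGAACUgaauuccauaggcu
miR-34a-5p and miR-34b-5p share another seed:
miR-34a-5p: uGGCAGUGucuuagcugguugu
miR-34b-5p: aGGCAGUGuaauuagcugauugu
The opposite arms of Mir34b and Mir34c also share a seed:
miR-34b-3p: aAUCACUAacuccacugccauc
miR-34c-3p: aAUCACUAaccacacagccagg
Each of the following has a seed that no other member carries:
miR-21a-5p: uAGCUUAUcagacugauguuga
miR-21a-3p: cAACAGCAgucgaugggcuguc
miR-155-5p: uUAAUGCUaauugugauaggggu
Among the other hairpins of the table, miR-449a-5p and miR-449c-5p carry the seed of miR-34a-5p, and miR-21c carries that of miR-21a-5p. None of these 3 could be placed on the genome from the reads, so no level is given for them.

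The libraries held 9269795, 10816006 and 10218743 mapped reads in replicates 1, 2 and 3. Levels are given as reads per 1000000 mapped reads (RPM). An arm counts all reads whose 5′ end lies within 3 nt of its RefSeq start. For miR-34c-5p this start was taken as the base before the seed of miR-34a-5p in the Mir34c hairpin. An arm was called detected at 10 or more reads in every library. Where a library had 0 reads, 3 reads were taken as the limit, which is 0.324, 0.277 and 0.294 RPM in the same order. Intervals and limits cover counting error only.

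The hairpins differed in how firmly their place was known, because positions are those of the mm9 build and the reference table is of a later one. Mismatched reads show which base the genome does not have at a position, and 3 hairpins, Mir21a, Mir146 and Mir146b, could be named from this sequence evidence alone. Mir146 was close to the limit, with 21.2 bits of evidence where 20 were required, and at 30 bits only Mir21a and Mir146b were named. Mir34a was taken as the only one of 6 starts between its neighbours Mir30e and Mir429 whose reads were mostly 20 to 25 nt long, and Mir34c as the only start with 10 reads over all libraries between Mir125b-1 and Mir184. Both starts were thus picked for having reads, so their detection is partly given by the placement and is no evidence for it. Mir155 was placed by its distance to Mirlet7c-1 and Mir802, and Mir34b by its distance to Mir34c. The rule used for Mir155 was checked on hairpins named by sequence whose neighbours lie at the reference distance, and it put 67 of 68 on the same base. This check does not cover Mir34a, Mir34b and Mir34c, and the values of all 4 hairpins rest on position and not on sequence.

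Of the 14 arms, 6 were detected in all libraries, 8 were not, and 4 of those had no read at all. Of 320 other arms of hairpins named by sequence, 89.1% were detected, but those hairpins could be named only because they had many reads, so the shares are not comparable. Together the arms reached 2292 RPM in replicate 1, 2079 in replicate 2 and 1958 in replicate 3, a mean of 2110 ± 169 RPM (SD, n = 3). These reads were 0.229%, 0.208% and 0.196% of all mapped reads in the same order. miR-21a-5p made up most of this sum, with 67.4%, 67.6% and 72.9%, and miR-146b-5p most of the rest, with 28.4%, 27.9% and 23.3%. Among the 14 arms, miR-21a-5p and miR-146b-5p thus held most reads, where the share of miR-146b-5p depends on how its reads are summed, as described with its starts.

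**Figure D1:**
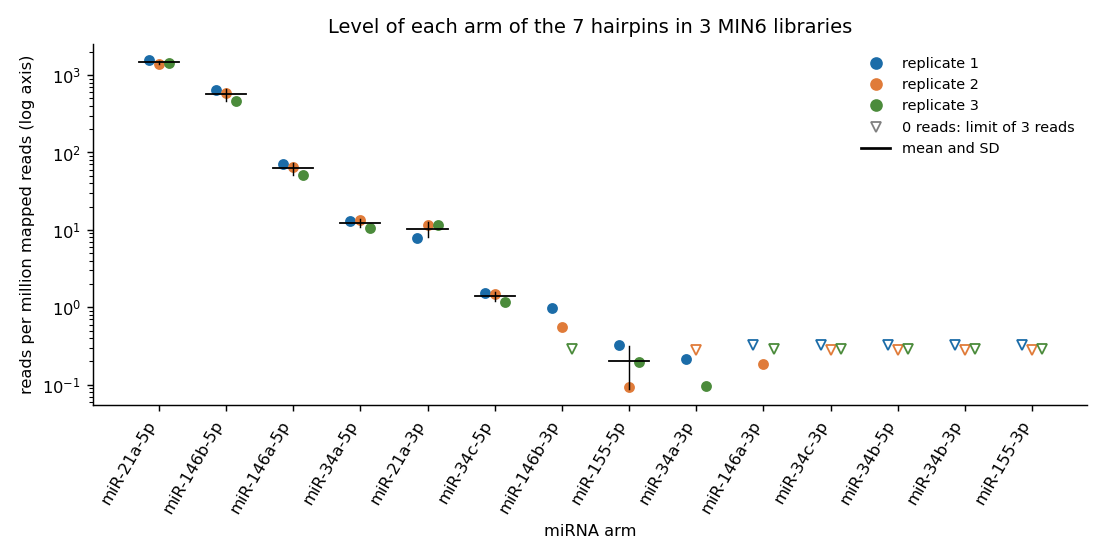
Level of each of the 14 arms in RPM on a log axis, with 1 point per library, a bar at the mean and a line for the SD where all 3 libraries had reads. Open triangles mark libraries with 0 reads at the limit of 3 reads, and the 6 detected arms run from 1460 RPM for miR-21a-5p to 1.39 RPM for miR-34c-5p.

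miR-21a-5p, a microRNA induced by inflammatory signals and known to target Pdcd4, had 1546, 1406 and 1427 RPM, a mean of 1460 ± 75.2 RPM. miR-146b-5p, which like miR-146a-5p targets the Toll-like receptor signalling proteins Irak1 and Traf6, had 650.2, 580.5 and 456.6 RPM, a mean of 562 ± 98.0 RPM. miR-146a-5p had 72.0, 65.2 and 50.6 RPM, a mean of 62.6 ± 10.9 RPM. These 3 arms kept this order in every library and their ranges did not overlap.

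miR-34a-5p, a p53-induced microRNA known to target Bcl2, had 13.2, 13.5 and 10.7 RPM, a mean of 12.4 ± 1.55 RPM. miR-21a-3p, the opposite arm of Mir21a, had 7.88, 11.6 and 11.6 RPM, a mean of 10.4 ± 2.15 RPM. The ranges of these neighbours overlapped and their order was not the same in every library, so they did not differ beyond their spread. miR-34c-5p, from the Mir34b and Mir34c cluster that is best known from testis and airway, was the lowest arm called detected, with 14, 16 and 12 reads or 1.51, 1.48 and 1.17 RPM at a place chosen for having reads.

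Below these, miR-146b-3p had 9, 6 and 0 reads and miR-155-5p, an NF-kB-induced microRNA of immune cells that is made from the long noncoding RNA Mir155hg, had 3, 1 and 2 reads. miR-34a-3p had 2, 0 and 1 reads and miR-146a-3p had 0, 2 and 0 reads. Neighbours among these 4 arms had overlapping ranges, and only miR-155-5p and miR-34a-3p kept their order in every library, by 1 read in each. miR-34b-5p, miR-34b-3p, miR-34c-3p and miR-155-3p had no reads in any library, which leaves room for up to 0.324, 0.277 and 0.294 RPM of each. At this depth neither arm of Mir34b or Mir155 could be told from a level of a few reads.

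Among 5′ starts of all named hairpins, ordered by reads, the start of miR-21a-5p ranked 43 in each library. miR-146b-5p ranked between 61 and 67, miR-146a-5p between 210 and 227, and miR-34a-5p between 329 and 345, where 663 starts had at least 10 reads in every library. The arms nearest to miR-21a-5p in level, by the summed absolute difference of log2 RPM over the 3 libraries, were miR-29a-3p with 1597, 1428 and 1405 RPM and a difference of 0.09, and miR-423-3p with a difference of 0.32. Nearest to miR-146b-5p were miR-501-3p (0.31) and miR-429-3p (0.33), and nearest to miR-146a-5p were miR-574-3p (0.23) and miR-324-5p (0.25). For miR-34a-5p they were miR-98-3p (0.19) and miR-16-1-3p (0.52), for miR-21a-3p miR-98-3p (0.90) and miR-674-5p (1.04), and for miR-34c-5p miR-107-5p (0.57) and miR-574-5p (0.69). In each case 301 other arms with reads in all libraries were compared. Each of these arms, and each other start in the ranking, was counted at 1 place, while miR-146b-5p was summed over its 3 starts. Reads that such an arm or start shares with other loci thus entered only in part.

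A list of 16 further microRNAs known from stress of beta cells gave a scale for the 7 hairpins. Of these 16, 11 could be placed, with a median hairpin level of 583 RPM and Mir375 as the most abundant. All 11 were named by sequence, which needs many reads, so low hairpins could not enter. Mir203, Mir139 and Mir204 were not placed, and Mir30b and Mir708 had no hairpin in the RefSeq table. Counted over the whole hairpin, Mir21a reached 1580, 1448 and 1472 RPM, and Mir375, Mir182 and Mir141 were higher in every library. Mir29a, a microRNA of the same stress literature, was at 1635, 1458 and 1442 RPM, above Mir21a in replicates 1 and 2 and below it in replicate 3. Mir146b was below 5, 5 and 7 of the 11 in replicates 1, 2 and 3, so its place in the list differed between libraries. Mir146 was below 10 of the 11 in each library, all but Mir29b-1 with 44.0, 40.8 and 39.4 RPM. Each listed hairpin was counted at 1 place only, so reads divided among several loci entered with their share there. Mir146b was summed over its 3 starts, so it was not counted in the same way as the list. Mir34a, Mir34b, Mir34c and Mir155, which were not named by sequence, were below all 11, although the starts of Mir34a and Mir34c were picked for having reads. By the mean over libraries, among all 172 other hairpins named by sequence, whose median was 344 RPM, 43 lay above Mir21a, 64 above Mir146b and 152 above Mir146. These hairpins, too, were counted at 1 place each. They are the ones with enough reads to be named and not a sample of all 1005.

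The MIN6 label was checked against marker microRNAs. The beta-cell markers Mir375, Mir7-1 and Mir184 were all detected and summed to 345582, 369363 and 383366 RPM, nearly all of it Mir375. Of the 6 blood and immune markers, 3 were placed. Mir451 had 4 reads in each library, Mir144 had 4, 2 and 1 reads, and only Mir181a-1, which is not restricted to blood, was high, with a sum over the placed markers of 8297, 7585 and 7508 RPM. For Mir142 and Mir223, which define blood and myeloid cells, no start of 10 reads and microRNA length lay between their neighbours outside named hairpins. Of 5 fibroblast and smooth muscle markers 2 were placed, Mir199a-2 with 2.10, 2.30 and 1.79 RPM and Mir214 with 0 reads in every library. The endothelial Mir126 had 155.9, 143.9 and 127.4 RPM, above miR-146a-5p, and its part in the levels of the inflammatory members was not tested. Of the liver, acinar and muscle markers none was placed. In bulk RNA, fewer cells of a type and less RNA per cell cannot be told apart.

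miR-146a-5p and miR-146b-5p were lowest in the same library. Replicate 3 stood, for the former and the latter, at 0.738 and 0.742 of the mean of replicates 1 and 2, while the median of 242 other arms with at least 100 reads in every library was 0.931 (quartiles 0.878 and 0.981). The same 4 of the 242 arms were lower than each of them, miR-346-5p, miR-29c-5p, miR-184-3p and miR-212-5p, which are named here after their values were seen. miR-34a-5p stood at 0.800, with 19 arms lower, and miR-21a-5p at 0.967, with 168 lower. miR-34c-5p stood at 0.786, with 11 arms lower, but from only 14, 16 and 12 reads. miR-21a-3p stood at 1.20, with 241 of the 242 arms lower, but from a low replicate 1 of only 73 reads, since its levels in replicates 2 and 3 were alike. The ratio of miR-146b-5p to miR-146a-5p was 9.03, 8.90 and 9.02, a mean of 8.98 ± 0.0715, so the ratio varied far less than either level. With reads of at least 20 nt alone it was 8.99. The cause of the lower level of both arms in replicate 3 was not tested.

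**Figure D2:**
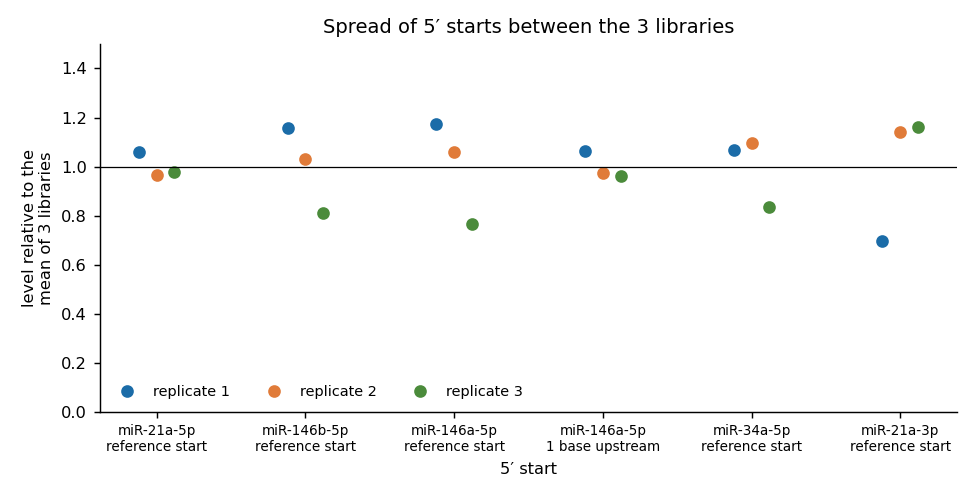
Level of 6 individual 5′ starts in each library, divided by the mean of the 3 libraries (linear axis from 0). In replicate 3 the reference starts of miR-146b-5p and miR-146a-5p lie at 0.812 and 0.766, while the miR-146a-5p start 1 base upstream lies at 0.963.

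The reads of miR-146b-5p were divided among 3 starts on the plus strand of chromosome 19, at 46416764, 46417047 and 46417280. Each start carried nearly the same values, for instance 2002.7, 2085.9 and 1550.3 reads at the first of them in replicates 1, 2 and 3. Of the alignments at these starts, 91.5%, 91.5% and 98.1% had values that gave whole reads when multiplied by 3, within 0.02. The level given above is the sum over the 3 starts. The deposited counts divide a read among its equally good loci. The sum thus counts a read shared by these starts in full, while 1 start holds only a share of it. At the last start alone, where miR-146b-3p also had its reads, the level was 187 RPM and the ratio to miR-146a-5p was 2.98. Both values therefore depend on this choice by a factor of 3. With that start alone, an alternative chosen after seeing the data, miR-146b-5p made up 11.6%, 11.4% and 9.17% of the reads of the 14 arms, ranked between 118 and 132 among starts, and was below 8 of the 11 listed stress hairpins in each library. With whole values alone, taken as reads of a single locus, its level was 216 RPM. Values divided by 3 can also be whole, so this is not a level of single-locus reads only. GENCODE M21, on GRCm38, has Mir146b inside the gene Mfsd13a on the same strand.

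Both miR-146 members can be told apart in reads that reach base 21. At the reference start of miR-146a-5p, on the minus strand of chromosome 11 at 43187958, 323, 335 and 218 reads of at least 21 nt had no mismatch and so matched it at both differing positions. At least part of the reads at Mir146 therefore carried its own sequence and not that of Mir146b. With reads of no mismatch alone, of any length, the level of miR-146a-5p was 35.5 RPM.

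miR-146a-5p had a second 5′ start. Its reference start held 535, 565 and 385 reads, or 80.2%, 80.1% and 74.5% of the arm, and the start 1 base upstream held 130, 139 and 130 reads, or 19.5%, 19.7% and 25.1%. The 95% Wilson intervals of the upstream share were 16.7% to 22.7%, 17.0% to 22.8% and 21.6% to 29.0%. Reads from the upstream start carry a different seed, shown in capitals in this form read from the RefSeq hairpin:
miR-146a-5p from 1 base upstream: cUGAGAACugaauuccauggguu
No other mature form in the table has this seed. Of the upstream reads of at least 22 nt, 189 of 396 had no mismatch. Over 242 other arms the median share of the start 1 base upstream was 0.0883%, and 11 arms, or 4.55%, were above miR-146a-5p. miR-146b-5p, with the same first bases, had only 0.195%, 0.248% and 0.279% of its reads there. The upstream start was at 14.1, 12.9 and 12.7 RPM, and the reference start at 57.8, 52.3 and 37.7 RPM. Both were lowest in replicate 3, the upstream start at 0.963 and the reference start at 0.766 of its mean over the libraries. The intervals of the upstream share overlapped between all libraries.

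Of the other detected arms, miR-21a-5p and miR-146b-5p were sharp at their 5′ ends. The reference start held 99.3%, 99.4% and 99.4% of miR-21a-5p and 99.6%, 99.5% and 99.5% of miR-146b-5p. The median over other arms was 98.4%. For miR-34a-5p, on the plus strand of chromosome 4 at 149442582, it held 99.2%, 99.3% and 95.4%. This reference start was set at the start picked for its reads. Its share was thus largely given by the placement and cannot show a shift. miR-34c-5p, on the minus strand of chromosome 9 at 50911203, and miR-155-5p, on the plus strand of chromosome 16 at 84714388, had too few reads to divide. miR-21a-3p was less sharp, with 76.7%, 85.6% and 86.6% at its reference start.

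The 3′ ends varied more, and both abundant members were longer than their RefSeq forms. At its reference start, miR-146b-5p was 24 nt long in 81.7%, 82.1% and 80.7% of reads and 22 nt long, as in RefSeq, in only 1.52%, 1.84% and 1.46%. miR-21a-5p was split between 24 nt, with 40.8%, 41.9% and 40.6%, and the 22 nt of RefSeq, with 34.1%, 33.3% and 34.2%. Reads of 23 nt made up 19.4%, 18.9% and 19.3%, less than either. The 24-nt forms follow the hairpin for 2 more bases:
miR-21a-5p read form of 24 nt: uAGCUUAUcagacugauguugacu
miR-146b-5p read form of 24 nt: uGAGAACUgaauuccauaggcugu
Of 240 other arms, 156 were most often at their RefSeq length and only 13, or 5.42%, were most often longer by 2 nt or more. miR-146a-5p was most often at its RefSeq length of 22 nt, with 70.6%, 67.8% and 64.4% of reads. miR-34a-5p was most often 22 nt long too, with 44.6%, 53.8% and 55.8%, beside 43.0%, 34.5% and 30.8% at 23 nt. Its start was picked for reads of mostly 20 to 25 nt, so a length in this range was partly given by the placement. Of the few miR-34c-5p reads, 95.1% were 23 nt long.

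**Figure D3:**
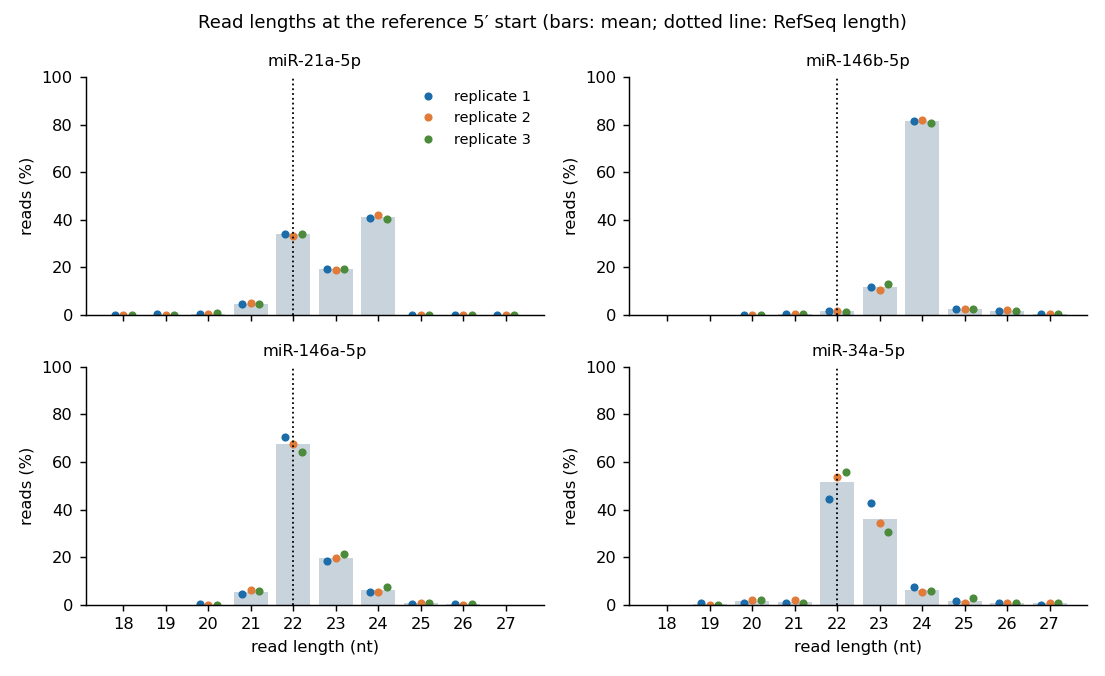
Share of reads of each length from 18 to 27 nt at the reference 5′ start of 4 arms, with bars for the mean of 3 libraries, points for single libraries and a dotted line at the RefSeq length. miR-146b-5p peaks at 24 nt and miR-21a-5p has peaks at 22 and 24 nt, while miR-146a-5p and miR-34a-5p peak at 22 nt. The start of miR-34a-5p was picked for reads of mostly 20 to 25 nt.

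A last base that mismatches the genome is the usual sign of a base added after cutting. Such reads made up 15.3%, 16.1% and 21.1% of miR-146a-5p at its reference start, 25.3%, 25.9% and 24.6% at its upstream start, and 5.79%, 8.28% and 10.6% of miR-34a-5p. They made up 4.95%, 5.24% and 4.93% of miR-21a-5p and 4.68%, 4.77% and 4.42% of miR-146b-5p. The median over 224 other starts was 7.54% (quartiles 2.83% and 17.9%), so miR-146a-5p was near the upper quartile and both abundant members were below the median. An added base that equals the genome cannot be seen in this way.

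Which added base can be seen depends on the next base of the genome. Uridine made up 79.4% of the mismatching ends of miR-146a-5p, 88.4% of those of miR-146b-5p and 66.7% of those of miR-34a-5p. The last share rests on few reads, as miR-34a-5p had 370 reads at its start, mismatching or not, beside 16892 for miR-146b-5p. Of the 23-nt reads of miR-146a-5p, 67.2% ended in A23U, counted from the 5′ end. Of the 25-nt reads of miR-146b-5p, 98.3% ended in G25U. In miR-21a-5p, 73.4% of the mismatching ends were cytosine and 5.33% uridine, and 8.99% of its 24-nt reads had U24C and 1.95% had U24A. An added uridine cannot be seen in these 24-nt reads, and of the 51 reads of 25 nt, 92.2% ended in G25U, so these shares do not show that the members differ in added uridine. Ends with cytosine made up 3.70% of miR-21a-5p reads, beside a median of 0.234% over other starts, of which 6 were higher.

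Reads also differed from the genome inside the sequence, at adenosines read as cytosine. In miR-21a-5p, A10C was present in 10.0%, 9.31% and 9.01% of reads and A12C in 16.8%, 15.8% and 20.7%. In miR-146b-5p, A6C was present in 7.90%, 8.25% and 8.44%, A10C in 11.4%, 11.2% and 11.5%, and A11C in 4.87%, 4.32% and 4.31%. In miR-146a-5p the same changes stood at 8.42%, 11.4% and 4.24% over the 3 libraries. Other adenosines of these arms were near 0, such as A5C at 0 in both miR-146 members, A7C at 0.198% and A16C at 0.265% in miR-21a-5p. The medians of other miRNA starts with an adenosine at the same position were 9.14% at position 6, 12.5% at position 10, 7.81% at position 11 and 18.6% at position 12. With the 3 libraries together no member was above these medians. In single libraries, miR-21a-5p was above the median at position 12 in replicate 3, and miR-146a-5p at position 10 in replicate 2, with 12.7%. These reads are part of the levels: only 67.5%, 68.8% and 64.8% of miR-21a-5p reads had no mismatch.

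**Figure D4:**
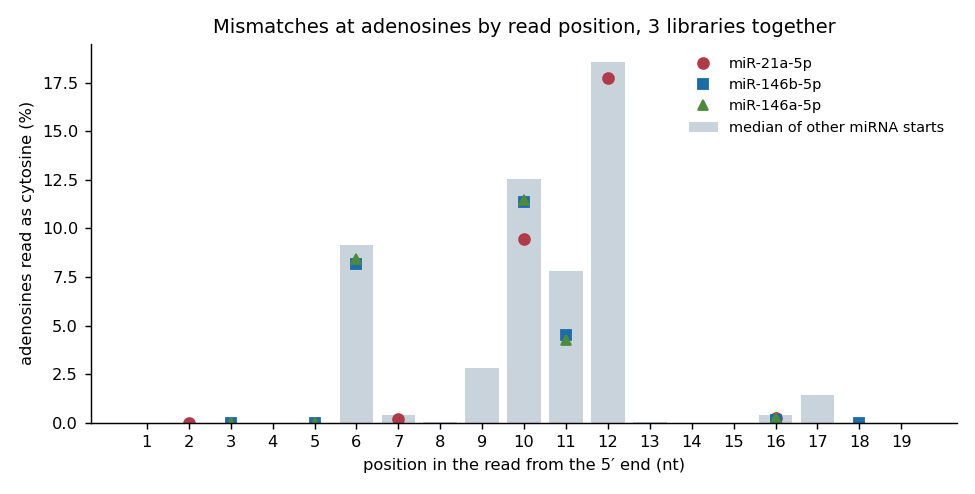
Percent of reads with a cytosine where the genome has an adenosine, by position in the read, for 3 members (points, 3 libraries together) and as the median of other miRNA starts (bars). The members follow the bars at positions 6, 10 and 12, lie below the bar at position 11, and are near 0 at their other adenosines.

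Nearly all reads of the detected hairpins came from the 5p arm. miR-21a-3p made up 0.507%, 0.815% and 0.809% of the arm reads of Mir21a, with Wilson intervals of 0.403% to 0.637%, 0.685% to 0.970% and 0.677% to 0.968%. In replicate 1 the share lay below the intervals of the other libraries. miR-146b-3p made up 0.149%, 0.0955% and 0% of the arm reads of Mir146b, where the last has an upper bound of 0.0823%. Its reads lay at the last of the 3 starts only, and against that start alone the shares were 0.447%, 0.287% and 0%, with an upper bound of 0.247% for the last.

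The Mir21a hairpin, which GENCODE M21 places on GRCm38 in an untranslated region of Vmp1 on the same strand, gave a further product. Besides miR-21a-5p from chromosome 11, minus strand, at 86397643 and miR-21a-3p from 86397605, 235, 315 and 328 reads lay upstream and ended at the base before miR-21a-5p. They stood at 25.4, 29.1 and 32.1 RPM, a mean of 28.9 ± 3.38 RPM. This was 3.22, 2.52 and 2.76 times the reads of miR-21a-3p, so the flank exceeded the opposite arm in every library. Their 5′ ends were spread and their 3′ end was not: 50.6% were 17 nt long, 27.3% were 18 nt and 8.54% were 19 nt, and 99.5% of all 882 reads upstream of the arm shared the same last base. Of the flanking reads 91.7% had no mismatch. Among 123 5p arms with at least 100 reads in every library, 17 had at least 10 such reads in every library, and Mir21a ranked 3 by their number and 10 by their share of the arm, at 1.99%.

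**Figure D5:**
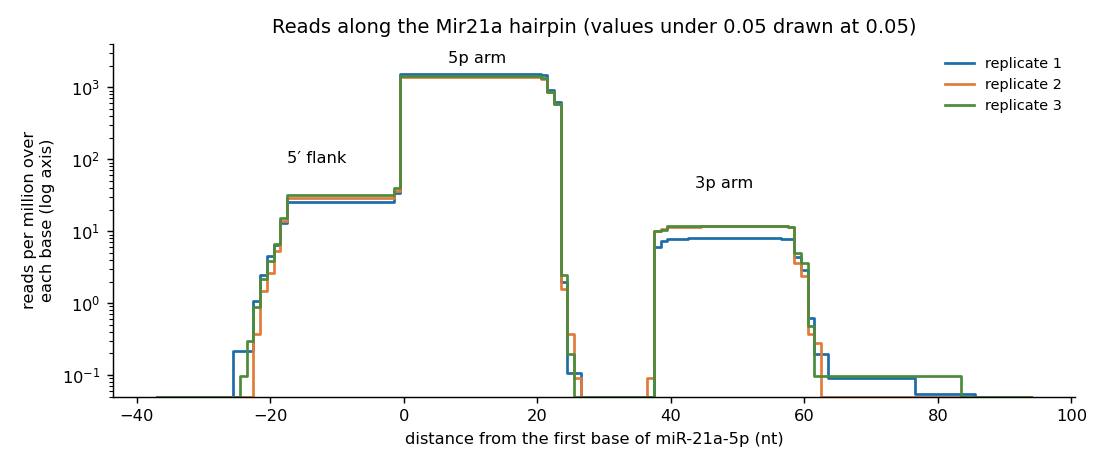
RPM over each base of the Mir21a hairpin on a log axis, by distance from the first base of miR-21a-5p, with 1 line per library and values under 0.05 drawn at 0.05. The flank ends where the 5p arm begins and lies above the 3p arm in each library.

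The opposite strand of Mir21a also had reads, 6, 16 and 16 in replicates 1, 2 and 3. Of these, 5, 15 and 16, or 0.539, 1.39 and 1.57 RPM, started at the base across from base 75 of the hairpin. The reads from this start were most often 22 nt long, and 80.6% had no mismatch. At the other 6 hairpins no read lay on the opposite strand in any library.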

How the data were processed

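Small RNA of 3 MIN6 libraries was read from alignments. The authors deposited expected counts: each alignment carries its reads, a read with several equally good loci is divided among them, and nothing was normalized or pooled. Per the study's methods, adaptors were trimmed with cutadapt, reads were aligned exactly with Bowtie, and remaining reads were aligned with mismatches near exact matches, so a miRNA without exact reads cannot appear. The submitters' processing notes name mm9. Alignments marked exact end 1 base early, and this was corrected. With Python 3.11.15, pandas 2.3.3 and numpy 2.4.6, hairpins were named where mismatches excluded other bases with at least 20 bits, at starts with 15 or more reads: 175 of 1005. RPM used all mapped reads. All 7 members matched a RefSeq hairpin. Naming and intervals were tested on simulated data. No group comparison was possible, so no test was run. Named genes were the members, hairpins sharing a seed, the 2 nearest arms in level, and a stress list. Members and lists were chosen with earlier results of these data known. Figures were drawn with matplotlib 3.10.9. Alternatives covered mismatches, shared reads, denominators, starts, detection and each library.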

Additional observations from a re-analysis of the deposited data

How the results depend on the processing

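With 1 condition there were no pairs of libraries to compare. Leaving out 1 of 3 libraries cannot move a mean by more than the SD, so those of the 57 such values that are means say nothing about stability. The number of detected arms, a count among them, could only rise when a library was left out, and stayed at 6 each time. Of 57 other alternative values, 28 moved by less than the spread between replicates, or stayed within 1.5 times for counts, and 29 moved further. Without mismatched alignments the level of the 7 hairpins fell to 1431 RPM, miR-21a-5p to 979, miR-146b-5p to 395 and miR-146a-5p to 35.5. With single-locus reads alone, taken as whole values, the 7 hairpins gave 1763 RPM and miR-146b-5p 216, where values divided by 3 can also be whole. Per 1000000 reads of 16 to 27 nt, the 7 hairpins gave 2401.5, miR-21a-5p 1662 and miR-34a-5p 14.2. Per 1000000 reads in assigned hairpins they gave 2939, with miR-21a-5p at 2033, miR-146b-5p at 784, miR-146a-5p at 87.2 and miR-34a-5p at 17.3. The reference start alone gave 49.2 RPM for miR-146a-5p. With 1 of the 3 miR-146b-5p starts, chosen after seeing the data, miR-146b-5p was at 187 RPM, the 7 hairpins at 1734 and the ratio at 2.98. The values so far follow from the reads left out or from the denominator. A mismatch in any of the last 3 bases, which counts more reads, gave 5.26% for miR-146b-5p and 10.8% for miR-34a-5p. At 30 bits Mir146 was no longer named by sequence. At 3 reads 6 arms were detected and at 30 reads 5. The depth does not resolve arms below about 10 reads.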

Other observations

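Among other miRNA starts, the median share of reads with a cytosine at an adenosine differed by position in the read. The cause was not tested. The highest medians lay at positions 12, 10, 6, 11, 9 and 17, with 18.6%, 12.5%, 9.14%, 7.81%, 2.80% and 1.43% of reads, while the medians at positions 2 to 5 were 0 and that at position 13 was 0.0226%. The highest median of any other kind of change was 0.755%, for cytosine read as adenosine at position 7.

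Reads that end at the base before a 5p arm were most numerous at miR-125a-5p with 1759 reads in the 3 libraries together and at miR-384-5p with 915, ahead of 878 at miR-21a-5p. Both were named after their values were seen.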
